A study of Bos taurus with 15 samples.

Results

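Wild-type (WT) ARGFX and a truncated mutant of it were compared directly in bovine fetal fibroblasts (BFFs), in the 7 samples that received one or the other. These were 4 WT ARGFX samples and 3 mutant ARGFX samples, of 15 samples in the series, and they were chosen by the condition in their labels. The control samples (n = 4) entered where a level is placed against them and in the scaling of levels, and the LEUTX samples (n = 4) in the scaling of levels and in fits that share 1 estimate of the spread. The question was which transcripts depend on the full-length protein.

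The cells were primary dermal fibroblasts grown from the torso skin of a single Bos taurus fetus of 6 months, used at passage 4. In the study's methods they carry only the WT allele of ARGFX, so that the mutant samples were not without a WT gene, although ARGFX had at most 1 count in any control sample. All groups were electroporated with the plasmid pSF-CMV-Puro-COOH, in which a CMV promoter drives the insert, and were selected with puromycin, and RNA was extracted after 72 h. The plasmid carried WT ARGFX, mutant ARGFX or LEUTX, each with a C-terminal linker and FLAG tag, or no insert in the control group. The mutant construct holds a short deletion found in the cattle reference genome, which shifts the reading frame and ends the protein before its homeodomain. Its early stop codon was replaced by the linker and tag, so that its insert is shorter than the WT insert. Samples are called biological replicates by the authors, but all cells came from the same fetus, and p-values measure the spread between these samples. A further mutant ARGFX sample was left out by the authors because it grouped with the WT ARGFX samples in a principal component analysis. It is not analysed here, and the difference between WT and mutant ARGFX was measured without it.

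ARGFX belongs to the ETCHbox genes, a group of PRD-class homeobox genes found in placental mammals and active for a short time in the early embryo. The homeodomain that gives these genes their name is a DNA-binding domain, through which homeobox proteins act as transcription factors that raise or lower their target genes. Skin fibroblasts do not normally use ARGFX. They make and remodel the collagen-rich extracellular matrix of the dermis and can take on a contractile state.

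The total expected count per sample was 31359218 to 35178524 with WT ARGFX and 28519622 to 41554242 with mutant ARGFX. The header WT ARGFX 3 stands on a pair of columns, so that neither has a usable replicate number, and they are called WT ARGFX a and WT ARGFX b. WT ARGFX b stood apart: the chi-square per degree of freedom between its gene counts and those of the other 3 WT ARGFX samples was 109 to 132, against 6.34 to 8.71 among those 3 and 10.4 to 27.6 among the mutant samples. Results that rest on it are given with and without it. The fibroblast markers COL1A1, COL1A2 and COL3A1, the chains of the main fibrillar collagens, were abundant in all 7 samples, with COL1A1 between 14294 and 23629 CPM (counts scaled to library size). Markers of other cell types carry no symbol in the table and were not analysed here.

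The transfected gene was checked first. ARGFX stood at 4506, 3176, 3039 and 3100 CPM in WT ARGFX 1, 2, a and b, and at 6212, 6606 and 3408 CPM in mutant ARGFX 1, 2 and 3, after TMM scaling, which adjusts each library for the makeup of its RNA. The mean was 3455 ± 703 CPM (SD, n = 4) with the WT construct and 5409 ± 1744 CPM (SD, n = 3) with the mutant construct, a ratio of 1.57, and the ranges overlapped between WT ARGFX 1 and mutant ARGFX 3. A two-sided exact permutation test gave p = 0.114. The form used doubles the p of the smaller tail, and 0.0571 is then the smallest p for 4 against 3 samples. In this form the test could not have passed 0.05. In edgeR the adjusted p was 0.341, and 0.0307 with a surrogate variable in the fit. Since the inserts differ in length, equal counts do not stand for equal numbers of transcripts. LEUTX was at no more than 11.3 counts in these 7 samples, and the related genes TPRX1, TPRX2 and TPRX3 were at 7 counts or fewer.

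Of 21665 genes in the table, 13785 were tested, and 141 differed between WT and mutant ARGFX at an adjusted p-value under 0.05 in edgeR's quasi-likelihood test, a fold change over 1.5 and a mean above 5 CPM. Expression was higher with WT ARGFX for 33 genes, which is 0.323% of the 10202 genes that could be called, and lower for 108 genes, which is 1.06%. The lower genes also differed more. Their median fold change was 2.13 and 61 of them passed 2-fold, whereas the median for the higher genes was 1.72 and 11 passed 2-fold. In all 33 and all 108, the ranges of the WT and mutant samples were apart, as they were for 7.23% and 7.31% of the genes that could be called. Without WT ARGFX b, 59 genes were higher and 140 lower, among them 31 of the 33 and 104 of the 108. Across the fits that left out each of the 7 samples in turn, 14 to 59 genes were called higher and 61 to 140 lower. In bulk RNA, a lower level can come from fewer cells with a transcript or from less of it per cell, and these cannot be told apart.

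**Figure D1:**
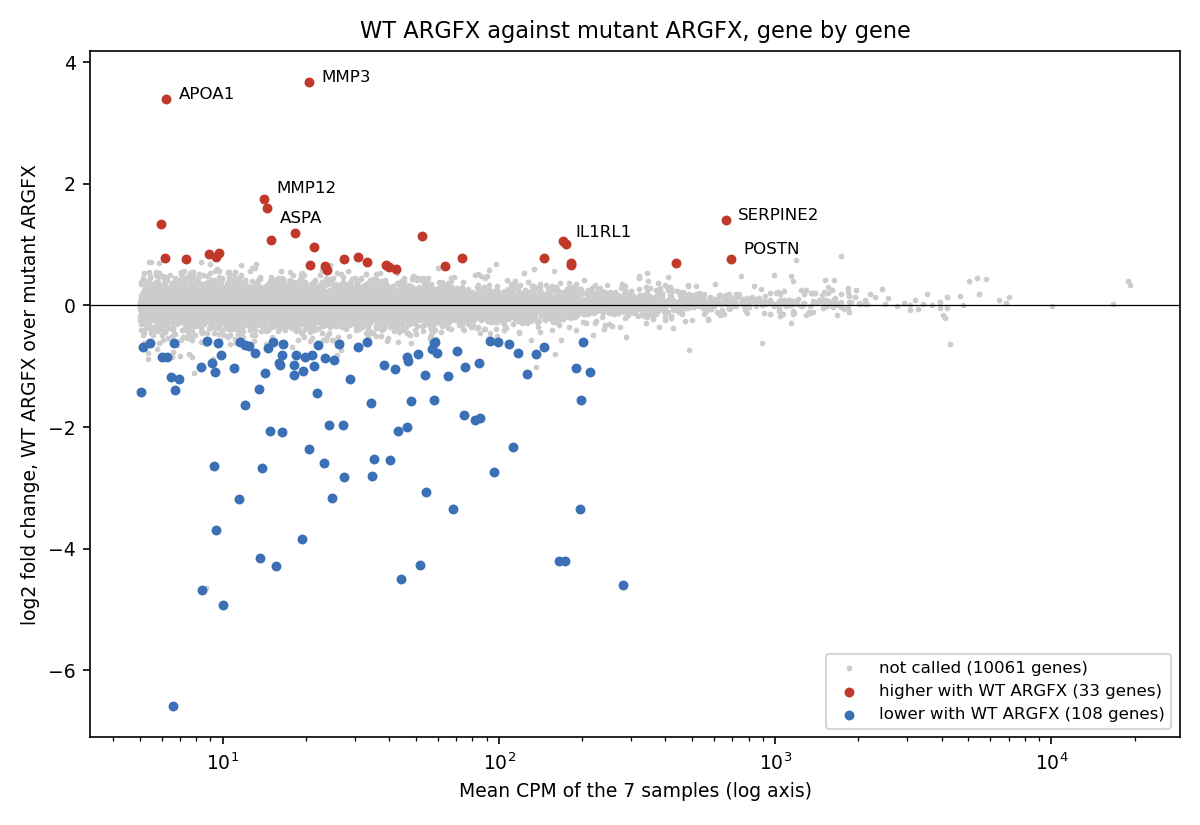
Each point is 1 of the 10202 genes that could be called, with its mean CPM over the 7 samples on a log axis and its log2 fold change of WT over mutant ARGFX on the vertical axis. The 33 genes called higher lie mostly close to the fold change threshold, with MMP3 and APOA1 far above the rest, while the 108 called lower reach down to a log2 fold change of -6.59.

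Gene symbols could be read for 20 of the 33 higher genes and for none of the 108 lower ones. The symbols come from a list that the authors made of genes higher with WT ARGFX than in control, of which 232 rows were used here, so that all named genes were chosen on these same WT samples. Of the 204 that could be called between WT and mutant ARGFX, 20 were higher with WT and 0 lower. The log2 fold change of WT over mutant was above 0 for 229 of the 232, with a median of 0.35 against 0.02 over all genes tested. The list gives no independent evidence on that direction, since high values in the WT samples chose it. Against control, 201 of the 232 were called higher with WT ARGFX, where 5.5% of all genes that could be called were, a count that the choice of the list fixes. With mutant ARGFX 66 were, where 1.04% of all genes were. Both comparisons share the control samples. Counts of called list members below stand beside these shares and beside 0.323% for WT over mutant, and in lists drawn from these symbols a high count with WT is fixed by the choice.

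Of the 3 metalloproteinase genes with a symbol, which encode secreted enzymes that cut extracellular matrix, 2 were higher with WT than with mutant ARGFX. MMP3, or stromelysin, degrades proteoglycans and several collagens and activates other metalloproteinases. It stood at 29.3, 25.6, 37.1 and 42.8 CPM in WT ARGFX 1, 2, a and b, and at 3.43, 2.31 and 2.26 CPM in mutant ARGFX 1, 2 and 3. Every mutant sample was within or near the control range of 1.92 to 3.43 CPM, and every WT sample was several times above it. WT over mutant differed by 3.67 on the log2 scale (standard error 0.23, adjusted p = 2.34e-05 in edgeR). MMP12, the macrophage metalloelastase, was at 20.4, 18.2, 19.3 and 22.4 CPM with WT ARGFX against 6.79, 6.44 and 4.81 CPM with the mutant. Here the mutant samples lay above all 4 control samples, which reached 4.6 CPM at most, although the mutant did not pass the threshold against control because the mean was under 5 CPM (log2 fold change 0.78, adjusted p = 0.0167 in edgeR). Between WT and mutant, MMP12 differed by 1.75 on the log2 scale (standard error 0.14, adjusted p = 0.000116 in edgeR). MMP3 and MMP12 are neighbouring genes in the RefSeq annotation of assembly ARS-UCD2.0, and members of this family are similar in sequence, so that reads could be split between them. The third member with a symbol, MMP28, had a log2 fold change of 0.27 and was not called.

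SERPINE2, a secreted inhibitor of serine proteases such as thrombin and urokinase, was at 920, 718, 906 and 1049 CPM with WT ARGFX and at 335, 398 and 295 CPM with the mutant. The mutant samples overlapped the control samples, which ran from 322 to 476 CPM. WT over mutant differed by 1.40 on the log2 scale (standard error 0.15, adjusted p = 0.00118 in edgeR), and the gene was called in every fit that left out 1 of the 7 samples.

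**Figure D2:**
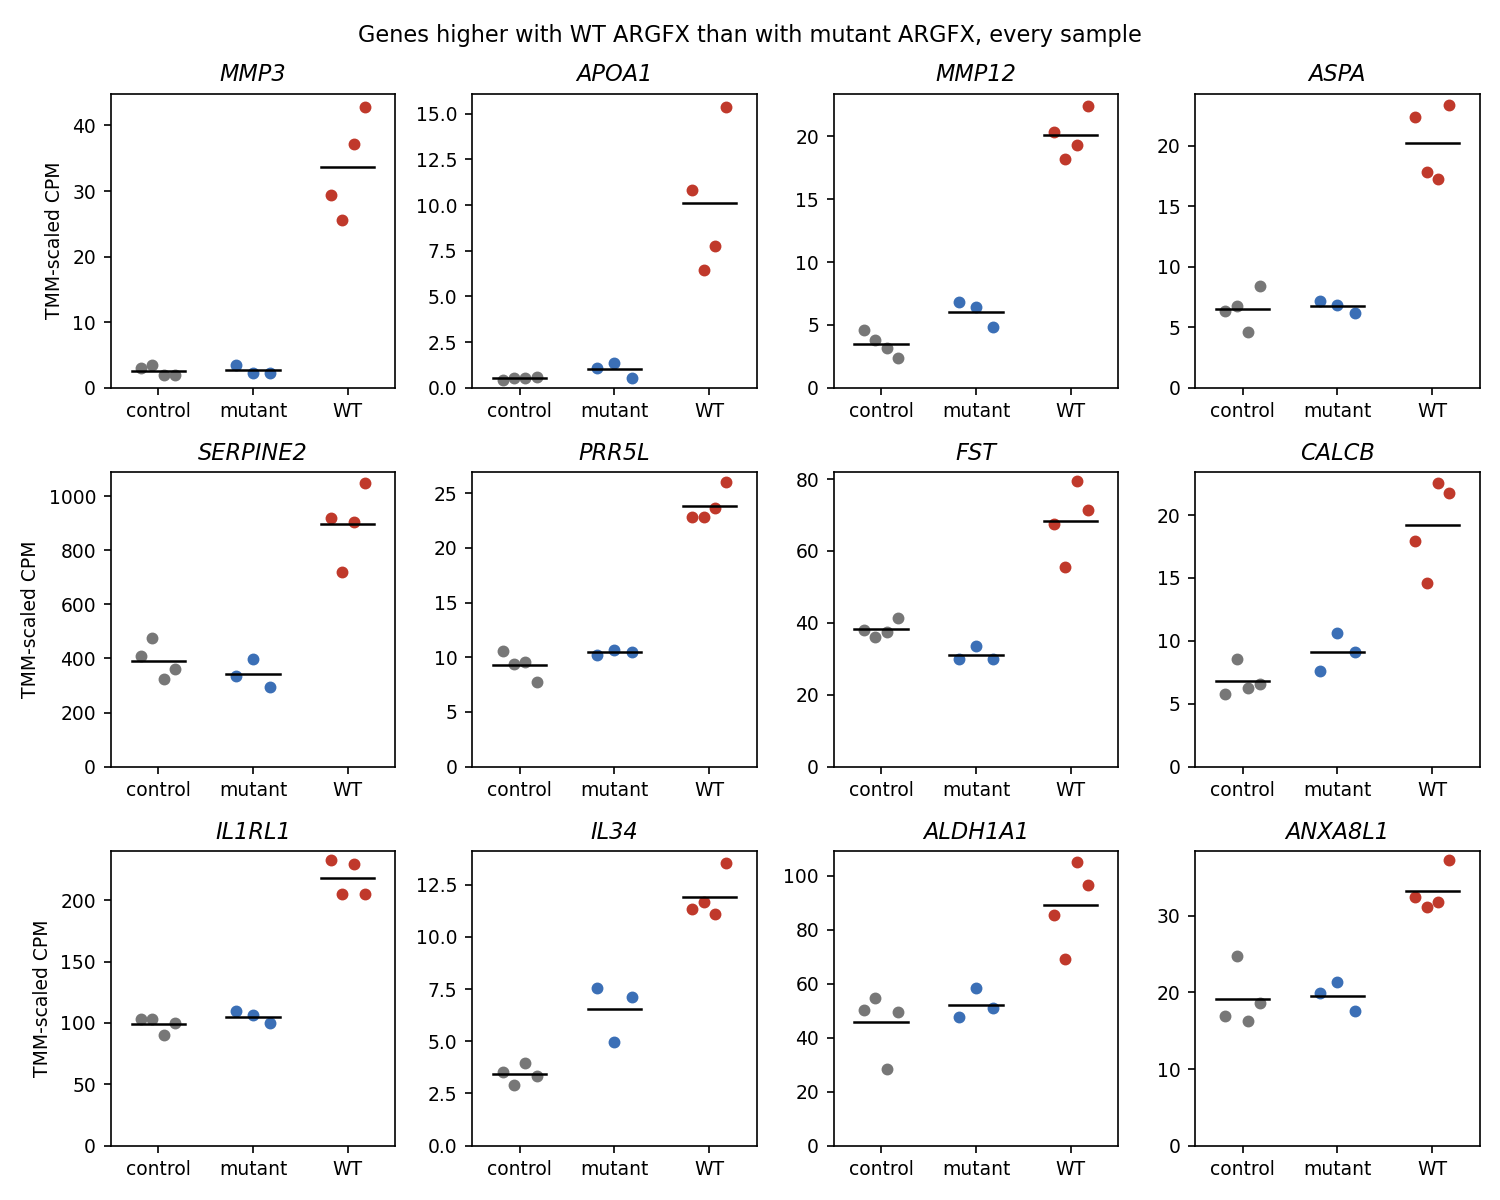
Every point is 1 sample and the horizontal line is the group mean, in TMM-scaled CPM on a linear axis from 0, for the 12 genes with a symbol that were most increased with WT over mutant ARGFX. In all 12 panels every WT ARGFX sample lies above every mutant sample. The mutant samples lie above all controls in MMP12 and IL34, below all controls in FST, and overlap the controls in the other panels.

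Among structural and processing proteins of the matrix, 4 of 15 list members with a symbol were higher with WT than with mutant ARGFX, and none of the 8 collagens was, against 0.323% of all genes that could be called and 20 of 204 on the study's list. POSTN encodes periostin, a matricellular protein of collagen-rich tissue. It stood at 948, 833, 779 and 795 CPM with WT ARGFX and at 525, 500 and 459 CPM with the mutant (log2 fold change 0.77, standard error 0.11, adjusted p = 0.00613 in edgeR). FMOD, fibromodulin, which binds collagen fibrils and shapes their growth, was at 481 to 558 CPM with WT and 288 to 345 CPM with mutant ARGFX. For both genes the mutant samples overlapped the controls. TGFBI, an adhesion protein induced by TGF-beta, was at 175 to 243 CPM with WT and 129 to 146 CPM with the mutant, and P3H2, an enzyme that hydroxylates prolines in collagen, at 40.9 to 51.4 and 28.1 to 33.5 CPM. For these 2 genes all mutant samples lay above all control samples. The log2 fold changes of FMOD, TGFBI and P3H2 between WT and mutant were 0.70, 0.66 and 0.62. The calls of TGFBI and P3H2 were each lost in 5 of the 7 fits that left out 1 sample, and those of POSTN and FMOD in 2.

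The collagens themselves differed less between WT and mutant. Their log2 fold changes ran from 0.15 in COL5A1 to 0.42 in COL5A2, with a median of 0.29, and none was called, though all 8 were called higher than control with WT ARGFX. With mutant ARGFX, 3 of the 8 were called higher than control: COL3A1 (log2 fold change 0.61), COL11A1 (0.87) and COL15A1 (0.70). On the study's list 66 of 232 were, and 1.04% of all genes. COL3A1 had 6321, 5911, 5234 and 4841 CPM with WT, 4590, 4232 and 3889 CPM with mutant, and 2504 to 3131 CPM in control samples, so that the groups stood in 3 separate steps although the step from mutant to WT did not pass the test (log2 fold change 0.40, standard error 0.14, adjusted p = 0.318 in edgeR). Without WT ARGFX b the adjusted p of COL3A1 was 0.00972 at a log2 fold change of 0.46, and 6 of the 8 collagens had an adjusted p under 0.05, among them COL5A2 (log2 fold change 0.52, adjusted p = 0.00081), with all 8 under the fold threshold. A miss of this kind does not show that WT and mutant act alike on the collagens. Collagen genes resemble each other, and the authors' pseudoalignment could share reads between them.

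Several matrix genes depended on WT ARGFX b. NID2 encodes nidogen 2, a linker protein of basement membranes, and was at 1701, 1410 and 1634 CPM in WT ARGFX 1, 2 and a but at 985 CPM in WT ARGFX b, against 841, 927 and 805 CPM with the mutant. Its log2 fold change was 0.75 (adjusted p = 0.103 in edgeR) with all 7 samples and 0.88 (adjusted p = 1.23e-05) without WT ARGFX b. MXRA5, a matrix remodelling protein, went from 0.67 to 0.91 on the same log2 scale when that sample was left out, and FN1, fibronectin, from 0.46 to 0.63, and both were then called. Without that sample 7 of the 15 matrix partners were higher, and still 0 of the 8 collagens.

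Of 19 contractile and cytoskeletal list members, 3 were higher with WT than with mutant ARGFX, against the same 0.323% of all genes and 20 of 204 on the study's list. LMOD1, or leiomodin 1, nucleates actin filaments in smooth muscle. It stood at 27.3, 29, 25.1 and 28.9 CPM with WT ARGFX, at 18.1, 15.6 and 19 CPM with the mutant and at 5.67 to 9.99 CPM in control samples. The log2 fold change was 0.65 between WT and mutant (adjusted p = 0.0144 in edgeR) and 1.06 between mutant and control (adjusted p = 0.00321), and LMOD1 was the only 1 of the 33 higher genes that was called higher than control with the mutant as well. PDLIM2, a PDZ and LIM domain protein that associates with the actin cytoskeleton, was at 24.8 to 31.5 CPM with WT and 17.8 to 18.8 CPM with the mutant. Both calls were fragile. LMOD1 was lost in 4 of the 7 fits that left out 1 sample and in the fit to all 15 samples (adjusted p = 0.134 in edgeR), and PDLIM2 in 6 of the 7, among them the fit without WT ARGFX b (log2 fold change 0.51), and under DESeq2. The third member is SERPINE2, described above, which is known as a protease inhibitor and not as a contractile protein. ACTA2, smooth muscle actin, had 1923, 1826, 1800 and 2902 CPM with WT ARGFX and 1292, 1289 and 1062 CPM with the mutant. Its log2 fold change of 0.81 (standard error 0.19) did not pass the test with all 7 samples (adjusted p = 0.0916 in edgeR) and passed without WT ARGFX b, the highest sample, at 0.61 (adjusted p = 0.000417). Actins are nearly identical in sequence, so this count is uncertain. ACTA2 was 1 of 7 members of the list that were called higher than control with mutant ARGFX. That count stands beside 66 of 232 on the study's list and 1.04% of all genes. All 19 were called higher with WT (5.5% of all genes), which the choice of the symbols fixes.

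Genes for secreted signals and their receptors were few among those with a symbol. FST encodes follistatin, which binds and neutralises activin. It stood at 67.6, 55.4, 79.3 and 71.3 CPM with WT ARGFX, at 29.8, 33.5 and 29.9 CPM with the mutant and at 36.1 to 41.4 CPM in control samples. The groups lay on opposite sides of the controls, with every WT sample above and every mutant sample below them. The log2 fold change of WT over mutant was 1.15 (standard error 0.13, adjusted p = 0.00118 in edgeR), that of WT over control 0.84 (adjusted p = 8.95e-06), and that of mutant over control -0.30, which was not called (adjusted p = 0.0845). IL1RL1, the receptor of interleukin 33, was at 233, 205, 229 and 205 CPM with WT and 110, 106 and 99.6 CPM with the mutant, against 90.5 to 103 CPM in control samples (WT over mutant log2 fold change 1.06, adjusted p = 0.000192 in edgeR). IL34, a cytokine that signals through the receptor of colony-stimulating factor 1, was at 11.1 to 13.6 CPM with WT, 4.94 to 7.57 CPM with the mutant and 2.89 to 3.95 CPM in control samples. IL34 thus took a middle level with the mutant, while the mutant samples overlapped the controls for IL1RL1. The call of IL34 between WT and mutant was lost in 6 of the 7 fits that left out 1 sample. TYK2, a kinase of the JAK family, was at 24.2 to 40.5 CPM with WT and 28.6 to 34.7 CPM with the mutant. Its log2 fold change between them was 0.12 (standard error 0.17, adjusted p = 0.901 in edgeR), and it was called higher than control with each construct.

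The other named genes serve metabolism and other functions. ASPA, the enzyme that splits N-acetylaspartate, was at 22.4, 17.9, 17.2 and 23.4 CPM with WT ARGFX and 7.15, 6.86 and 6.19 CPM with the mutant (log2 fold change 1.59, standard error 0.14, adjusted p = 0.000209 in edgeR), and the mutant samples all lay within the control range of 4.64 to 8.39 CPM. It was the only called member of the 8 amino acid and one-carbon genes with a symbol, whose median log2 fold change was 0.39. APOA1, the main protein of high-density lipoprotein, was low in all groups, at 10.8, 6.44, 7.75 and 15.4 CPM with WT and 1.1, 1.35 and 0.542 CPM with the mutant. Its log2 fold change was 3.39 (standard error 0.39, adjusted p = 0.00144 in edgeR), and without WT ARGFX b, its highest sample, the log2 fold change was 3.12 but the mean fell under 5 CPM, so that it was not called. ALDH1A1, an enzyme of retinoic acid synthesis, was at 69.2 to 105 CPM with WT and 47.5 to 58.4 CPM with the mutant, and its call was lost in 5 of the 7 fits that left out 1 sample. PRR5L, which binds the mTORC2 complex, was at 22.8 to 26 CPM with WT and 10.3 to 10.7 CPM with the mutant (log2 fold change 1.19, standard error 0.09, adjusted p = 9.71e-05 in edgeR). CALCB, a gene of the calcitonin peptide family, and ANXA8L1, of the annexin family of calcium-dependent membrane-binding proteins, had log2 fold changes of 1.08 and 0.77. The call of CALCB was lost in 2 of the 7 fits that left out 1 sample, and that of ANXA8L1 in 1.

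Cell cycle genes with a symbol gave no called member between WT and mutant ARGFX. All 11, among them TOP2A, a topoisomerase of dividing cells, and PLK4, the kinase of centriole duplication, had a log2 fold change above 0 between WT and mutant, from 0.27 to 0.55, and none passed the test with all 7 samples. Without WT ARGFX b 6 of the 11 had an adjusted p under 0.05, among them PLK4 (log2 fold change 0.45, adjusted p = 0.00902 in edgeR) and TOP2A (0.40, adjusted p = 0.0142), and all stayed under the fold threshold. Against control, 9 were called higher with WT ARGFX, as the choice of the symbols favours, and 0 with the mutant. With the mutant, 66 of 232 on the study's list were called higher, and 1.04% of all genes. TOP2A was at 77.8 to 109 CPM with WT, 66.5 to 77.5 CPM with the mutant and 47.4 to 57.7 CPM in control samples. Of the genes that the study names for a blastocyst expression profile, only 9 carry a symbol here, among them SMTN and CTHRC1. The others were not analysed. Of these 9, 0 were called between WT and mutant, with a median log2 fold change of 0.27, and 4 had an adjusted p under 0.05 without WT ARGFX b. With the mutant, 4 of the 9 were called higher than control, CTHRC1 among them (log2 fold change 0.63, adjusted p = 0.0223 in edgeR). That count stands beside the same 66 of 232 on the study's list and 1.04% of all genes. KLF2, a transcription factor linked to naive pluripotency, and NQO1, an antioxidant enzyme, had log2 fold changes of 0.40 and 0.44 and were not called.

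**Figure D3:**
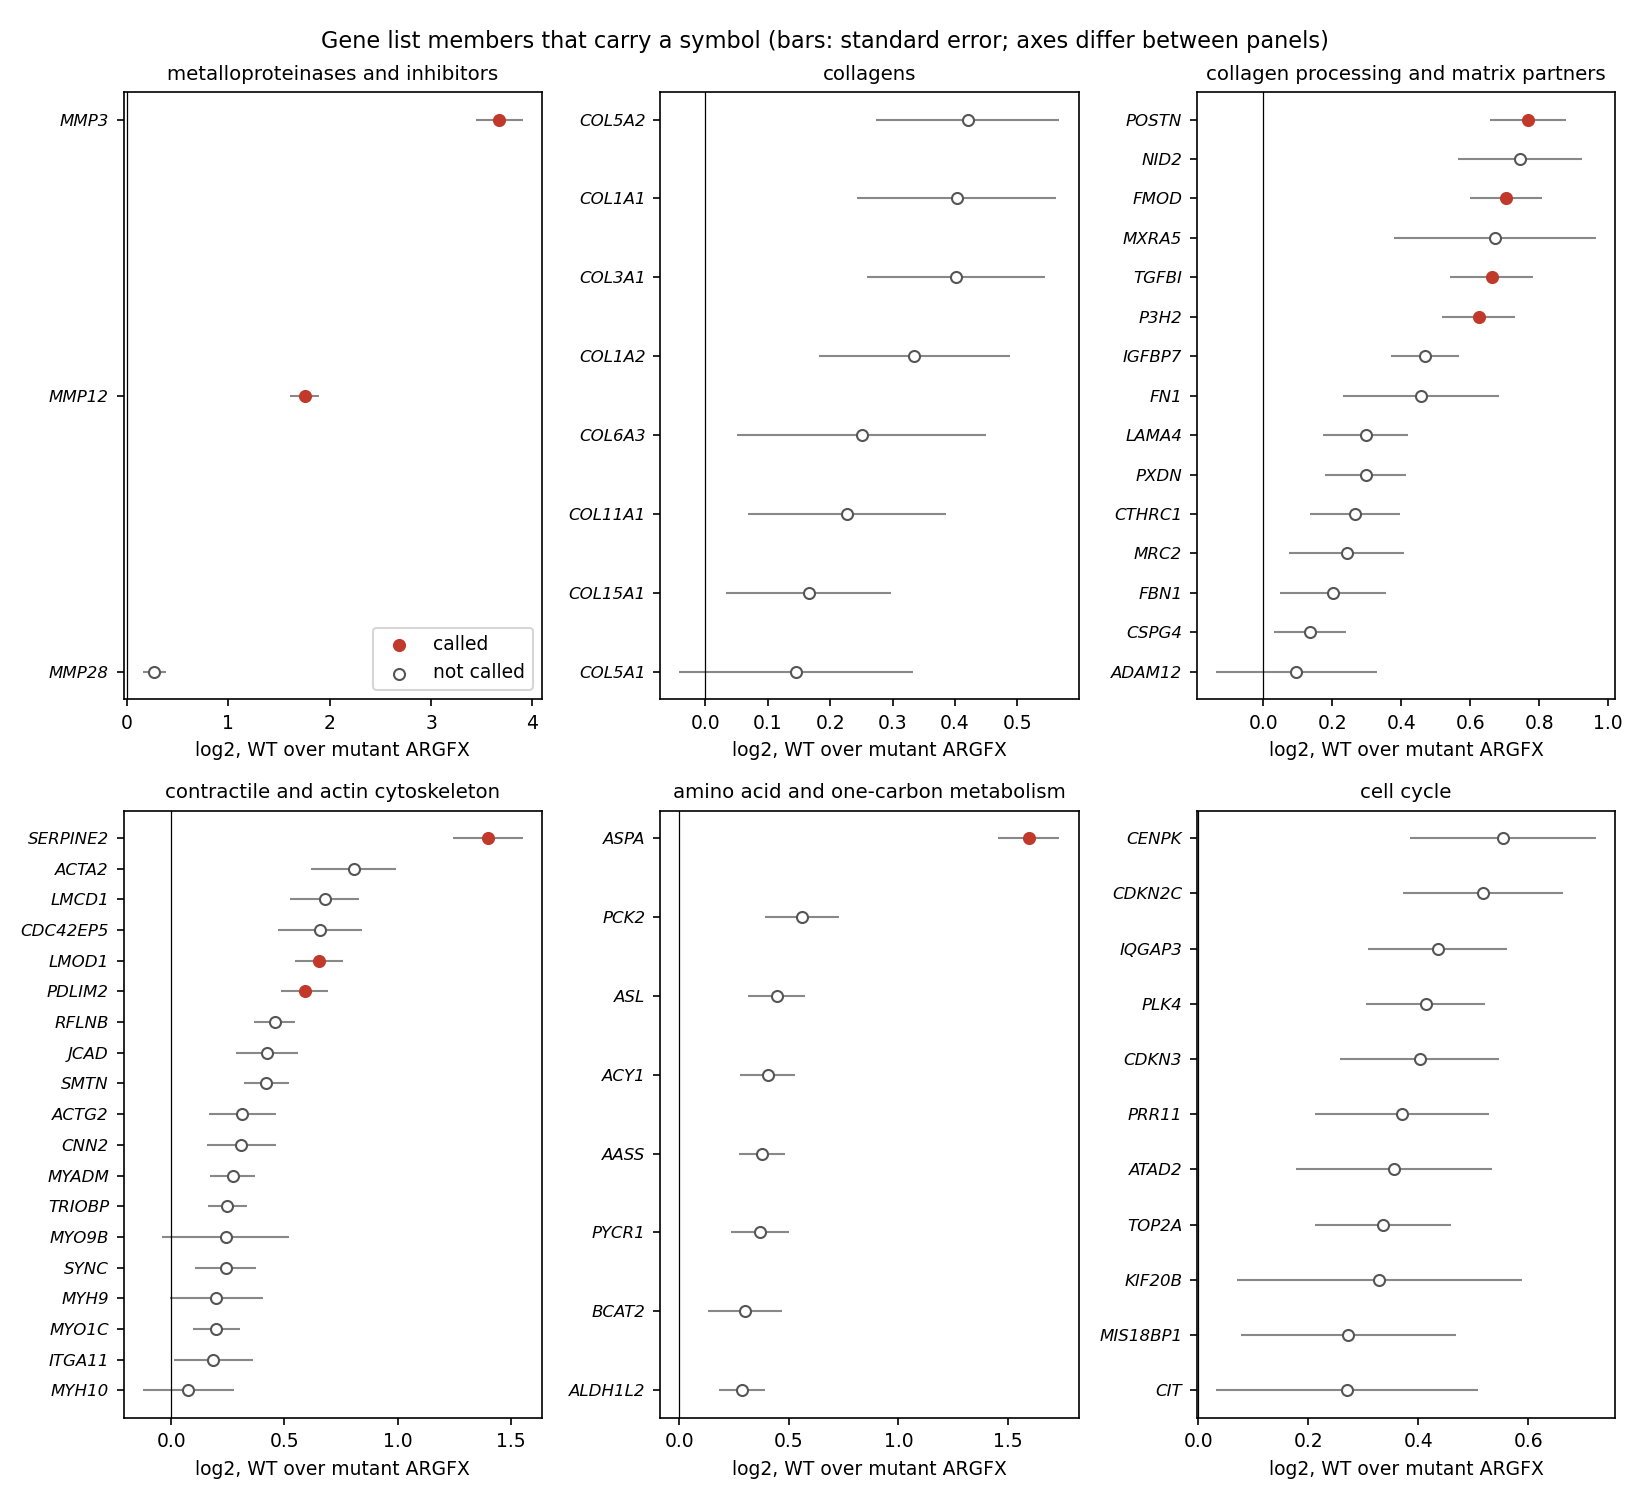
Each panel is a gene list, and each point is a member with a symbol at its log2 fold change of WT over mutant ARGFX, with its standard error; filled points were called in edgeR, and the axes differ between panels. Called members are MMP3 and MMP12, 4 matrix partners, 3 contractile list members and ASPA, while no collagen or cell cycle gene was called.

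Set against the controls, the higher genes were near control level with the mutant. The median log2 fold change from control over the 33 genes was 0.93 with WT ARGFX and 0.10 with the mutant. With WT, 29 of them were called higher than control (5.5% of all genes that could be called), and with the mutant 1 was (1.04%). With no CPM threshold the mutant count was 4. IL34 (log2 fold change 0.94, adjusted p = 0.00327 in edgeR) was among those kept out by a mean under 5 CPM. The mutant samples overlapped the control samples in 21 of the 33, lay above all of them in 8 and below all of them in 4. Over all genes that could be called between WT and mutant, they lay above in 14% and below in 13.4%. In each single sample the median level of these genes, as log2(CPM + 0.5) minus the control mean, was 0.84 to 1.00 with WT ARGFX and 0.01 to 0.17 with the mutant. Since the WT and mutant samples also chose these genes, and both contrasts use the same controls, the positions are a description. FST and 2 genes without a symbol had all WT samples above and all mutant samples below the controls. The share of all genes with this pattern was not computed, and none of these 3 was called lower than control with the mutant. One of the 2 without a symbol, ENSBTAG00000009812.5, had 203, 184, 302 and 197 CPM with WT, 97.6, 114 and 120.1 CPM with the mutant and 146 to 171 CPM in control samples. It was not called against control with either construct (log2 fold change 0.48 with WT and -0.53 with mutant, both under the threshold of 1.5-fold). Its call between WT and mutant was lost in 4 of the 7 fits that left out 1 sample. ENSBTAG00000005710.6, the other gene without a symbol named here, was at 6.7 to 9.56 CPM with WT, 2.45 to 4 CPM with the mutant and 1.23 to 2.16 CPM in control samples. The call of ENSBTAG00000005710.6 between WT and mutant was lost in 1 of the 7 such fits.

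For the 108 lower genes, the median level with the mutant lay between those of control and WT ARGFX. Their median log2 fold change from control was -1.95 with WT ARGFX and -0.87 with the mutant. Of the 108, 105 were called lower than control with WT, where 6.05% of the genes that could be called were lower, and 66 with the mutant, where 2.54% were. The mutant mean lay between the control and WT means in 103 of the 108, and also in 23 of the 33 higher genes. The share of all genes with a mutant mean in the middle was not computed. In 90 of the 108 every mutant sample was below every control sample, as in 13.4% of all genes. No gene of the 108 was called higher than control with the mutant. A gene chosen for lying lower with WT than with the mutant is more often one in which the mutant samples read high, so that the middle position is not independent of the choice.

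**Figure D4:**
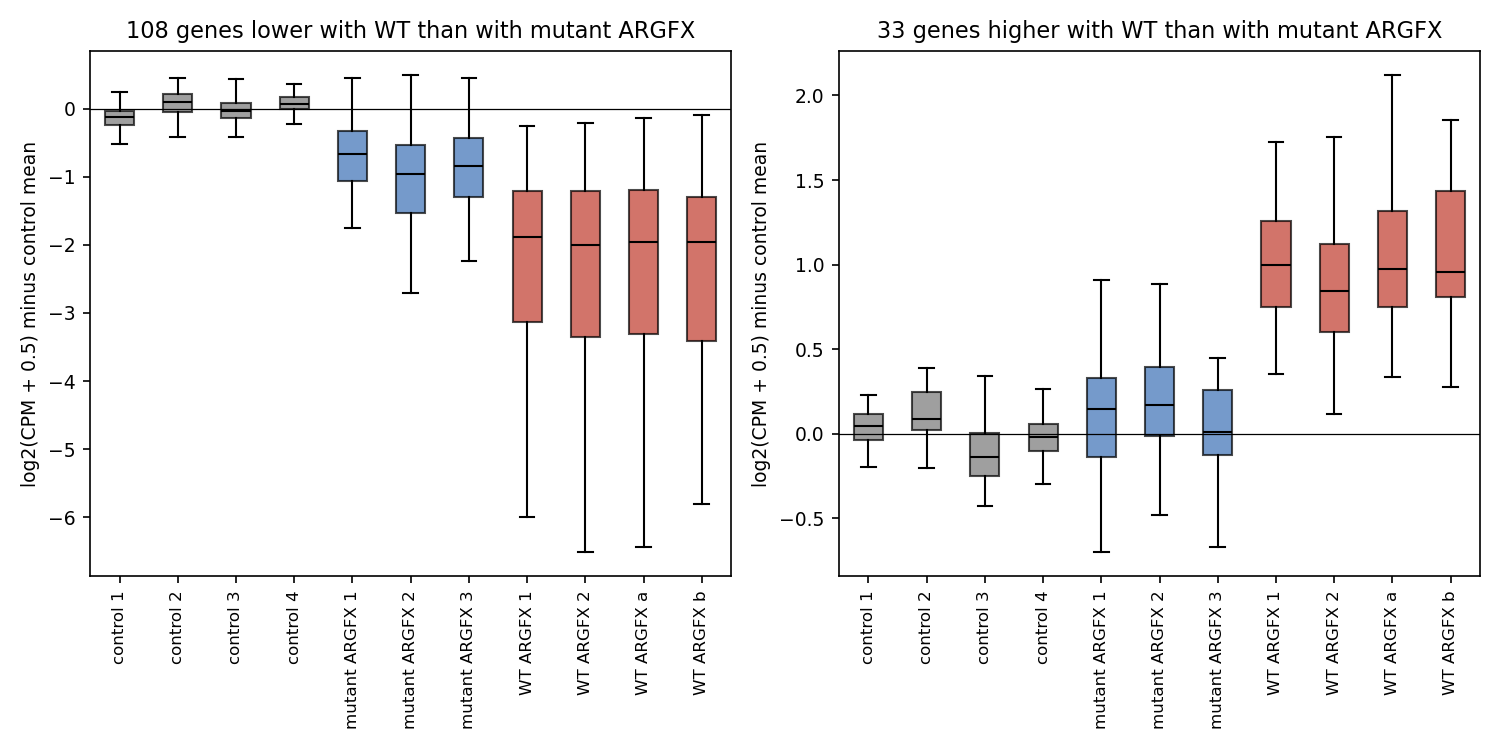
Each box is 1 sample and spans the first to the third quartile of the 108 lower genes (left) or the 33 higher genes (right), as log2(CPM + 0.5) minus the mean of the control samples, with the line at the median and whiskers within 1.5 times the box length; genes beyond the whiskers are not drawn. On the left the mutant samples sit between the controls and the WT samples, with medians of -0.67, -0.95 and -0.84, and on the right, at 0.15, 0.17 and 0.01, they sit near the controls.

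The lower genes were also split by the size of their fold change between WT and mutant. In the 17 genes that were over 8-fold lower with WT than with mutant ARGFX, the median of the group means was 237 CPM in control samples, 50.6 CPM with the mutant and 4.28 CPM with WT, and all 17 were called lower than control with the mutant too. In the 14 genes between 4-fold and 8-fold, 13 were. The share was smaller among the genes nearest the threshold: of 47 genes between 1.5-fold and 2-fold lower, 17 were called lower than control with the mutant. Over all genes that could be called, 2.54% were. Those 47 genes had a median control level of 48 CPM, against 237 CPM in the steepest band. The shares of the bands therefore do not compare like with like. ENSBTAG00000012406.6 had 64 to 120 CPM in control samples, 19, 7.32 and 19 CPM in the mutant samples, and 7, 2, 4 and 7 counts in WT ARGFX 1, 2, a and b. The log2 fold change of WT over mutant was -6.59 (standard error 0.46, adjusted p = 4.22e-05 in edgeR), with WT counts low enough that its exact size is poorly set. The call of this gene was lost in 2 of the 7 fits that left out 1 sample, those without mutant ARGFX 1 or mutant ARGFX 3. In both, its mean fell under 5 CPM, while the adjusted p was 0.00029 and 0.000611 in edgeR. ENSBTAG00000034349.4 had 73.5 to 109 CPM in control samples, 30.6, 15.7 and 20.8 CPM with the mutant, and 0.867, 0.388, 0.573 and 1.15 CPM with WT. Its log2 fold change was -4.92 between WT and mutant and -2.06 between mutant and control. In both genes the 3 groups stood fully apart.

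**Figure D5:**
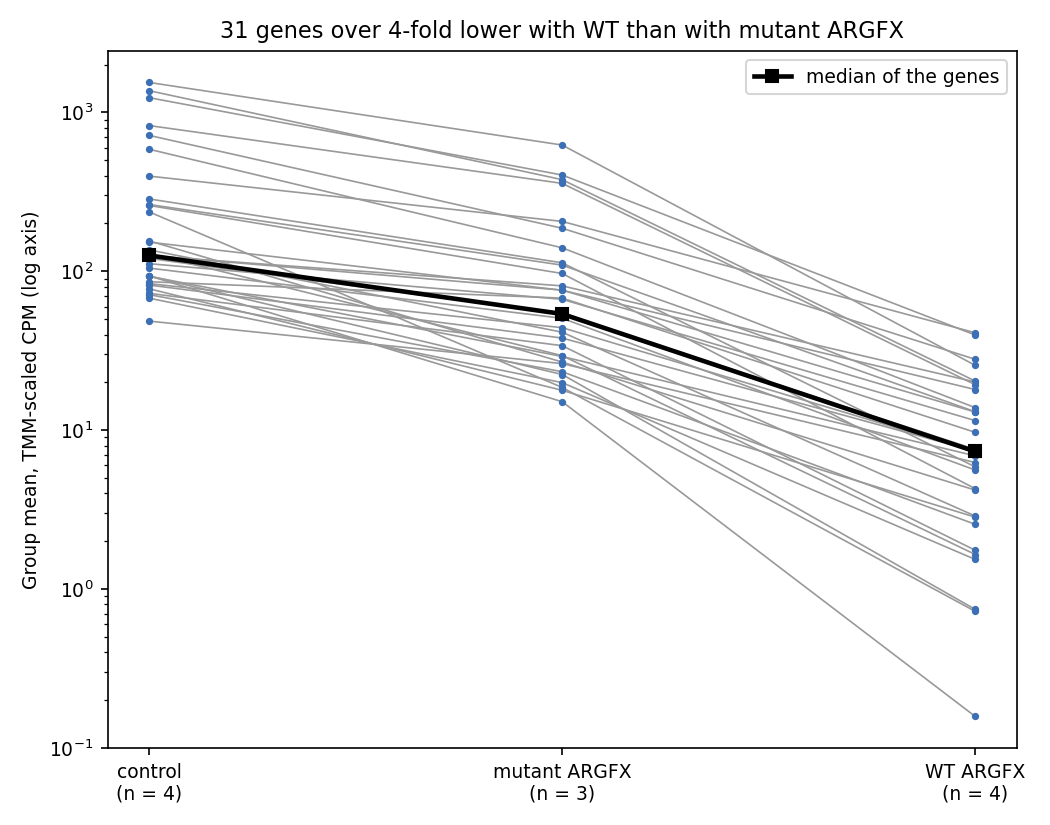
Each grey line joins the group means of 1 of the 31 genes over 4-fold lower with WT than with mutant ARGFX, in TMM-scaled CPM on a log axis, and the black line is their median. The median goes from 126 CPM in control samples to 53.9 CPM with mutant ARGFX and 7.34 CPM with WT ARGFX.

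The 3 mutant samples did not differ from control to the same degree. Mutant ARGFX 2 was the lowest of the mutant samples in 76 of the 108 lower genes, and mutant ARGFX 1 the highest in 75, whereas over all genes that could be called these shares were 33.3% and 26.7%. ENSBTAG00000012406.6 is an example, with 7.32 CPM in mutant ARGFX 2. The ARGFX level of mutant ARGFX 1 and mutant ARGFX 2 was similar, at 6212 and 6606 CPM, and mutant ARGFX 3 had the lowest at 3408 CPM. The part of the ARGFX level in this spread was not tested.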

How the data were processed

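RNA-seq of BFFs was analysed from 1 table of the series. The authors trimmed reads, pseudoaligned them with kallisto 0.46.1 (version as in the submitters' processing notes) to the ARS-UCD1.2 transcriptome with ETCHbox sequences added, and used tximport to sum them by gene. The values the authors deposited are expected counts (estimated counts) that were not normalized. Pseudoalignment can share reads between members of a gene family.

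After rounding to whole numbers, the expected counts entered edgeR 4.0.16 in R 4.3.3: filterByExpr, TMM normalization, the quasi-likelihood test and Benjamini-Hochberg adjustment, on the 7 WT and mutant ARGFX samples. Sample titles gave the groups and replicate numbers. Contrasts with control came from 1 fit to all 15 samples. A call needed a fold change over 1.5, a mean CPM above 5 over the samples compared and an adjusted p-value under 0.05. The CPM threshold stands in place of the study's TPM threshold, since the table holds no TPM. Levels are CPM with TMM scaling over 15 samples. Levels relative to control used a pseudocount of 0.5. Standard errors are the log2 fold change divided by the root of F. The fit was also run on simulated counts, and no result here rests on that run. ARGFX levels were compared by exact permutation in Python 3.11.15 with scipy 1.17.1. Depth was 28519622 to 41554242 counts per sample. Intervals and floors would cover counting error only, and none was needed.

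Symbols came from the ETCHbox rows and from the identifier and symbol columns of 232 rows of a supplementary list of genes higher with WT ARGFX, 220 of which have one. The RefSeq table (ARS-UCD2.0) matched 0 identifiers, and served only to see which genes neighbour each other, with none of its coordinates given. Of 432 symbols in 14 gene lists, 71 matched. Lists of interferon-stimulated genes, antigen presentation and markers of 6 other cell types had no matched member and were not analysed here. Genes named were the 12 called higher genes with a symbol and the largest fold change, called list members, and 2 higher and 2 lower genes without a symbol. NID2, MXRA5, FN1, ACTA2, COL3A1, TOP2A and TYK2 were singled out after their values were seen. The comparison, members and gene lists were chosen with earlier results of these data known.

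Alternatives were DESeq2 1.42.0, its size factors in edgeR, no filter on low counts, other thresholds, glmTreat, a surrogate variable (sva 3.50.0), all 15 samples in 1 fit, a replicate block and each sample left out. Leaving WT ARGFX b out of the list counts, and all alternatives for contrasts with control, were added after seeing the data.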

Additional observations from a re-analysis of the deposited data

Results flagged for a closer look

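ARGFX in WT ARGFX 1 stood at 4506 CPM, apart from the other 3 WT ARGFX samples at 3039 to 3176 CPM. FMOD in control 4 was at 237 CPM, below the other control samples at 288 to 298 CPM. ENSBTAG00000009812.5 in WT ARGFX a was at 302 CPM, above the other WT ARGFX samples at 184 to 203 CPM. Each of these passed Dixon's criterion for a sample apart from its group. They were 3 of 45 groups tested, where chance gives about 2.25.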

How the results depend on the processing

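The sign of the fold change was the same for all 141 called genes under every alternative in which they were fitted. This could hardly come out otherwise, since the WT and mutant ranges were apart in all 141. A glmTreat test against 1.5-fold left 9 genes higher and 49 lower with WT than with mutant ARGFX. Under the same test 16 of the 33 higher genes were called higher than control with WT and 0 with mutant ARGFX, and 36 of the 108 lower genes were called lower than control with the mutant. The count of higher genes also called higher with mutant than control was 1, and 4 with no CPM threshold, 4 with no fold change threshold and 2 without control 2. Leaving out each of the 7 samples gave 14 to 59 higher genes and 61 to 140 lower genes. The lowest counts came without mutant ARGFX 1 (14 and 61), the highest without WT ARGFX b, and without mutant ARGFX 3 there were 14 higher genes, without mutant ARGFX 2 there were 16, and 19 each without WT ARGFX 1 and WT ARGFX a. These fits have fewer samples. Of the 33 higher genes, 25 were called higher than control with WT ARGFX when WT ARGFX b was left out, and 29 with it.

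DESeq2 called 45 higher and 139 lower genes, a surrogate variable 46 and 147, and the fit to all 15 samples 37 and 125. Of the 22 called genes named by rule, 8 were called in every fit that left out 1 sample. ALDH1A1, TGFBI and P3H2 were lost in 5 of 7 such fits, and IL34 and PDLIM2 in 6. The ratio of mutant to WT ARGFX CPM was 1.39 to 1.85 when 1 sample was left out. It is a ratio of counts, with no correction for the shorter mutant insert, and not a ratio of transcript numbers. The edgeR log2 fold change of ARGFX was -0.64 (adjusted p = 0.341), and the surrogate variable brought it past the test (adjusted p = 0.0307). WT and mutant samples that carry the same number did not deviate together (correlation -0.02 and -0.17). Between unlike numbers the correlation ran from -0.08 to 0.26. With only 2 pairs of the same number, whether the numbers pair the samples cannot be settled. A replicate block, fitted to the 13 numbered samples of all groups, gave 24 higher and 120 lower genes, and the same samples gave 30 and 114 with no block.

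Genes near 5 CPM, such as APOA1, are called or not by small shifts of the mean. The middle level of the lower genes rests on 3 mutant samples. The mutant sample that the authors left out was not analysed here.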

Other observations

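Some genes of the lists were called above control with WT and with mutant ARGFX and were not called between them. These were picked after their values were seen. ITGA11, a collagen receptor subunit, was at 26, 26, 21.9 and 15.7 CPM with WT ARGFX, 21, 21.8 and 16.6 CPM with mutant ARGFX and 7.29 to 10.4 CPM in control samples. Its log2 fold change from control was 1.35 with WT and 1.17 with mutant ARGFX, and the difference between WT and mutant was 0.19 (standard error 0.18, adjusted p = 0.813 in edgeR). CSPG4, a membrane proteoglycan, had log2 fold changes from control of 0.83 with WT and 0.70 with mutant, and ADAM12, a membrane metalloprotease, 0.82 and 0.73. MYH10, a non-muscle myosin heavy chain, had 1.01 and 0.94, and its WT samples were at 497, 482, 481 and 260 CPM, the last in WT ARGFX b. In ADAM12 and MYH10 the other 3 WT samples lay above all mutant samples, and without WT ARGFX b the adjusted p between WT and mutant was 0.0217 for ADAM12 (log2 fold change 0.30) and 0.041 for MYH10 (0.25). For ITGA11 it was then 0.0834 (log2 fold change 0.32) and for CSPG4 0.142 (0.18). Both contrasts share the control samples, and the missed test between WT and mutant does not show equal levels.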
